A study of Danio rerio with 12 samples.

Results

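The genes described here are tlr5a, tlr5b and pglyrp5, which encode proteins that recognise bacteria. They were found by their symbols in the count table, where each has 1 entry of its own: ENSDARG00000044415 for tlr5a, ENSDARG00000052322 for tlr5b and ENSDARG00000068382 for pglyrp5. They are 3 of 31263 entries, and all 3 were among the 8453 entries that passed the filter on low counts. The genes were picked because tlr5b and pglyrp5 were strongly higher after a sterile injury in these same libraries. Their differences between injured and uninjured larvae are therefore given as values with no test, and support nothing. The AMD3100 contrasts and the interaction were not the stated reason for that choice and were tested. They are not independent of it, however. The AMD3100 contrasts share libraries with the injury contrasts, and the interaction is the difference of the injury contrasts. The choice can therefore shift their values.

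The study asked what neutrophils do in a regenerating spinal cord when the chemokine receptor Cxcr4 is blocked. Cells positive for mpx:GFP were sorted from the trunks of zebrafish larvae, and their messenger RNA was counted by an adapted CEL-seq protocol, which reads transcript ends. The GFP is driven by the promoter of the neutrophil peroxidase gene mpx, so the sort collects cells in which that promoter has been active. There were 4 groups of 3 libraries, labelled as biological replicates, each made from 2500 to 4800 sorted cells. In the injured AMD3100 group the spinal cord was cut at 3 days post-fertilization and the larvae stood in 25 uM AMD3100, an antagonist of Cxcr4, from 4 to 8 hours after the cut. The uninjured AMD3100 group received the same compound without a lesion, and its medium, like that of the injured AMD3100 group, held 0.1% DMSO. The injured DMSO group was cut and received DMSO. The uninjured DMSO group received DMSO without a lesion. Injured trunks were taken at 8 hours post-injury, and uninjured trunks were of the same age and region. The percentage of DMSO in the DMSO groups, the number of larvae behind a library and the strain are not stated in the labels. The numbers in the sample labels run from 3 to 9 in the DMSO libraries and from 10 to 16 in the AMD3100 libraries, and whether they mark separate sorts is not stated either, so a difference in handling and the effect of AMD3100 cannot be told apart if they do.

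Toll-like receptor 5 binds flagellin, the protein of the bacterial flagellum, and signals through the adaptor MyD88 and IRAK kinases to NF-kB. Zebrafish carry a pair of copies, tlr5a and tlr5b, whose products are known to work together as a heterodimer. In the RefSeq annotation of assembly GRCz12tu the tlr5 copies are direct neighbours on chromosome 20. The gene pglyrp5 belongs to the peptidoglycan recognition proteins, which bind the wall of bacteria. The zebrafish Pglyrp5 protein is known as an amidase that cuts peptidoglycan and as an antibacterial protein. All 3 genes are best known from studies of infection. No sequence of these genes was used here.

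Library totals ranged from 655451 to 12173133 counts. Injured AMD3100 replicate 1 was the shallowest and stood apart from the rest. It scored -114.4 on the first principal component, where the other 11 libraries lay between -33.0 and 39.9, and its transcript of the sorted marker, EGFP, reached 397 CPM, its reads relative to all reads of the library, against 1326 to 1935 CPM in the other 11. These EGFP values are not scaled by TMM factors, whereas the CPM of the marker lists that follow are. The contrasts of the 3 genes that use this library are given with and without it. Of the 13 neutrophil markers found, all had reads, and their summed level was 18677 to 30563 CPM in injured AMD3100, 45817 to 61799 CPM in uninjured AMD3100, 18815 to 25848 CPM in injured DMSO and 41447 to 55244 CPM in uninjured DMSO libraries. The summed level was lower in injured larvae without overlap, but the list split. Of its genes, mpx, npsn, cpa5 and abcb9 fell in both treatments and mmp9 rose in both (edgeR adjusted p from 0.000504 to 0.0261). The gene lect2l fell in AMD3100, and its negative log2 fold change in DMSO (-1.20) did not pass. Of the genes that passed in neither treatment, lyz (-1.39 in DMSO and -0.45 in AMD3100) and spi1b (-0.62 and -0.37) had negative log2 fold changes. Those of mmp13a, cxcr1, ncf1 and il6r were positive (0.06 to 1.01), and that of csf3r was 0.40 in DMSO and -1.28 in AMD3100. The symbol mmp13a has 2 entries. Here and in the lists below its values are those of 1 entry, which holds 144577 of their 410061 counts. The macrophage list of 17 genes summed to 219 to 303 CPM in injured AMD3100 and 147 to 239 CPM in uninjured AMD3100 libraries. In injured DMSO libraries it summed to 225 to 236 CPM, above the 166 to 191 CPM of uninjured DMSO libraries. The defining macrophage marker mfap4 had 0 counts in its own entry in all 12 libraries, as did grn1. This list split too. The gene ctsl.1 rose with injury in both treatments (edgeR adjusted p = 0.00539 in DMSO and 0.0336 in AMD3100), from 25.7 to 87.3 CPM on average in DMSO. The gene lgals3bpb fell in both (edgeR adjusted p = 0.00230 in DMSO and 0.00511 in AMD3100). Among the others, csf1rb fell in DMSO (edgeR adjusted p = 0.0107) and c1qb in AMD3100 (edgeR adjusted p = 0.0132). The macrophage gene mpeg1.1 averaged 3.38 CPM in injured DMSO and 9.33 CPM in uninjured DMSO libraries, but did not pass. With AMD3100 it averaged 6.25 CPM in injured and 8.83 CPM in uninjured libraries. Of the tested genes of the list that passed in neither treatment, ccl34a.4 and marco had positive log2 fold changes in both (1.03 to 1.45). Those of mpeg1.1, c1qc and s100a10b were negative in both, and those of csf1ra and havcr1 differed in sign between treatments. The 17 skin genes summed to 2928 to 5763 CPM in injured AMD3100, 4309 to 5708 CPM in uninjured AMD3100, 3272 to 5257 CPM in injured DMSO and 4212 to 6641 CPM in uninjured DMSO libraries. Most of that was pfn1, with means of 3860, 4531, 3542 and 4763 CPM in these groups in turn. The group means of krt4 were 115 to 136 CPM and those of epcam 1.58 to 3.37 CPM. In DMSO cldni and agr1 rose with injury (edgeR adjusted p = 0.0220 and 0.0202). In AMD3100 neither passed (edgeR adjusted p = 0.923 and 0.0699). The log2 fold change of agr1 was 1.21 in AMD3100 and 1.66 in DMSO, and that of cldni was 0.12 in AMD3100 and 2.01 in DMSO. The genes krt4, krt5 and epcam did not pass in either treatment. The 14 erythroid genes summed to 33.6 to 173 CPM in injured AMD3100, against 13.5 to 132 CPM in uninjured AMD3100 libraries. In DMSO they summed to 25.6 to 32.9 CPM in injured libraries, against 56.0 to 410 CPM in uninjured libraries, lower without overlap. The erythroid list also split. In DMSO hbbe1.2, hbbe1.3 and slc4a1a fell (edgeR adjusted p = 0.0195, 0.0395 and 0.0332). The gene epb41b rose in AMD3100, from 3.76 to 31.5 CPM on average (edgeR adjusted p = 0.0345). In DMSO epb41b averaged 14.3 CPM in injured and 4.32 CPM in uninjured libraries and did not pass. The 21 skeletal muscle genes summed to 1394 to 13092 CPM in injured AMD3100, against 13053 to 47894 CPM in uninjured AMD3100 libraries, and to 990 to 9387 CPM in injured DMSO, against 2554 to 22731 CPM in uninjured DMSO libraries. With injury ckmb and myhz1.2 fell in AMD3100 (edgeR adjusted p = 0.0425 each) and pvalb4 fell in DMSO (edgeR adjusted p = 0.0405). No other muscle gene passed. The log2 fold changes of tpma and myhz2 in DMSO and of pvalb4 in AMD3100 were positive (0.40, 1.03 and 0.63). The part of other cells in the results below was not tested, and in sorted bulk samples fewer cells of a type and less RNA per cell cannot be told apart.

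The flagellin receptor copy tlr5b was high in neutrophils of injured trunks and low in those of uninjured trunks. In DMSO it had 107, 163 and 156 CPM (scaled by TMM factors, as are all CPM below unless said otherwise) in injured libraries, against 8.16, 9.52 and 10.9 CPM in uninjured libraries. The lowest injured DMSO library lay about an order of magnitude above the highest uninjured one. These values rest on 323, 1848 and 972 counts in injured DMSO and 15, 13 and 60 counts in uninjured DMSO libraries. The means were 142 ± 30.5 CPM in injured DMSO and 9.53 ± 1.37 CPM in uninjured DMSO (SD, n = 3 each), a 14.7-fold difference (log2 fold change 3.88). With AMD3100, tlr5b had 862, 155 and 99.6 CPM in injured libraries, against 15.8, 7.93 and 16.5 CPM in uninjured libraries. The value of 862 CPM is that of replicate 1, the library that stood apart, and the other injured AMD3100 libraries lay within or near the range of the injured DMSO ones. The log2 fold change in AMD3100 was 4.80, or 27.8-fold, with all libraries and 3.30 without injured AMD3100 replicate 1. Among the 8453 tested genes, the fold of tlr5b was the 5th highest for injury in AMD3100 and the 31st highest for injury in DMSO. These ranks are from the fit to all libraries, and none was taken without injured AMD3100 replicate 1. As tlr5b was picked for its rise, they are description only.

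The other copy, tlr5a, was read far less often and did not follow tlr5b in every group. It had 168 counts over all 12 libraries, where tlr5b had 6341, and transcript-end counts carry no term for gene length. In DMSO tlr5a had 3.65, 5.22 and 3.20 CPM in injured libraries, from 11, 59 and 20 counts, against 2.72, 2.20 and 1.09 CPM in uninjured libraries, from 5, 3 and 6 counts. Every injured DMSO library lay above every uninjured DMSO one, with a 2.16-fold difference (log2 fold change 1.11). With AMD3100 it had 7.01, 0.575 and 1.96 CPM in injured libraries, from 5, 4 and 24 counts, against 0.337, 2.12 and 1.75 CPM in uninjured libraries, from 1, 23 and 7 counts. These groups overlapped, and injured AMD3100 held both the highest and the second lowest value of the 12 libraries. The log2 fold change for injury in AMD3100 was 0.56, but -0.17 without injured AMD3100 replicate 1, 1.26 without injured AMD3100 replicate 2 and -0.17 with limma-voom. At these depths a single count is imprecise: the 1 count of uninjured AMD3100 replicate 1 has a 95% Poisson interval of 0.0253 to 5.57 counts, and the 59 counts of injured DMSO replicate 2 one of 44.9 to 76.1. Such intervals cover counting error only. The copies are paralogs, and reads that fit both could have been split between them in the authors' counting. Such reads could also have been counted in an entry that names more than 1 gene, which was not examined.

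The make-up of the tlr5 pair can be read within each library, without any scaling. Of the reads of both copies, tlr5a took 0.806%, 0.369% and 1.93% in injured AMD3100 libraries, against 2.08%, 21.1% and 9.59% in uninjured AMD3100 libraries. It took 3.29%, 3.09% and 2.02% in injured DMSO libraries, against 25.0%, 18.75% and 9.09% in uninjured DMSO libraries. The pair was thus read almost wholly from tlr5b in injured larvae of both treatments, and every injured library had a lower tlr5a share than every uninjured library of its treatment. Since tlr5b was picked for its rise with injury and makes up most of the pair, this restates the contrast it was picked from and is no check. The uninjured shares rest on 16 to 109 reads per library. For uninjured DMSO replicate 2, 3 of 16 reads gave an exact Clopper-Pearson 95% interval of 4.05% to 45.6%. In AMD3100 the separation was narrow, at 1.93% in injured replicate 3 against 2.08% in uninjured replicate 1. The share of uninjured AMD3100 replicate 1 is 1 of 48 reads, with an interval of 0.0527% to 11.07%. That interval covers the shares of all injured AMD3100 libraries, so counting error alone could undo the separation in AMD3100. Between treatments, the share averaged 1.04 ± 0.807% in injured AMD3100 and 2.80 ± 0.687% in injured DMSO (SD, n = 3 each), without overlap (exact two-sided permutation p = 0.1, the smallest that 3 against 3 libraries allow). The nearest shares were 1.93% (interval 1.24% to 2.86%) in injured AMD3100 replicate 3 and 2.02% (interval 1.24% to 3.10%) in injured DMSO replicate 3. Counting error alone could therefore undo this separation too. Without injured AMD3100 replicate 1, a value added after the data were seen, the mean in injured AMD3100 was 1.15 ± 1.11% (SD, n = 2). In uninjured larvae it averaged 10.9 ± 9.58% with AMD3100 and 17.6 ± 8.02% with DMSO (n = 3 each, exact two-sided permutation p = 0.5).

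**Figure D1:**
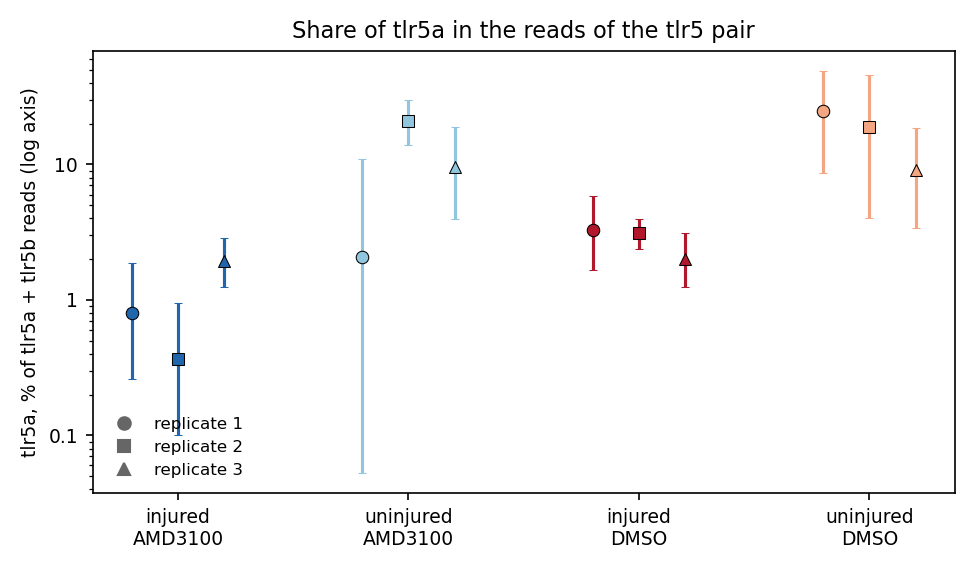
Share of tlr5a among the reads of tlr5a and tlr5b in each library, on a log axis in percent, by group. Points are libraries, shapes are replicate numbers and bars are exact 95% binomial intervals. Injured AMD3100 libraries sit between 0.369% and 1.93% and injured DMSO libraries between 2.02% and 3.29%, below the uninjured libraries of the same treatment. The gene tlr5b was picked for its rise with injury, so that order is no separate result.

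The peptidoglycan sensor pglyrp5 was also higher in injured larvae of both treatments, at a lower level than tlr5b. In DMSO it had 21.9, 68.4 and 31.6 CPM in injured libraries, from 66, 774 and 197 counts, against 7.62, 3.66 and 2.18 CPM in uninjured libraries, from 14, 5 and 12 counts. The means were 40.6 ± 24.6 CPM in injured DMSO and 4.49 ± 2.81 CPM in uninjured DMSO (SD, n = 3 each), a 9.87-fold difference (log2 fold change 3.30). That log2 fold change was 2.66 without injured DMSO replicate 2 and 3.95 without uninjured DMSO replicate 1. With AMD3100 it had 44.9, 77.5 and 21.9 CPM in injured libraries, from 32, 539 and 267 counts, against 8.43, 13.6 and 16.01 CPM in uninjured libraries, from 25, 147 and 64 counts. The means were 48.1 ± 27.9 CPM in injured AMD3100 and 12.7 ± 3.87 CPM in uninjured AMD3100 (SD, n = 3 each), a 3.77-fold difference (log2 fold change 1.91). The lowest injured library lay above the highest uninjured one in both treatments, and the injured libraries spread over more than 3-fold in each. In order of fold pglyrp5 was 183rd of 8453 tested genes for injury in AMD3100 and 54th for injury in DMSO. Without injured AMD3100 replicate 1 its log2 fold change in AMD3100 was 1.97, and without injured AMD3100 replicate 2 it was 1.32.

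In AMD3100, 2 of the 3 genes, tlr5b and pglyrp5, were higher in injured libraries without overlap, where 10.5% of all tested genes were. In DMSO all 3 were, where 15.9% of all tested genes were. Since the genes were picked from these contrasts, nothing is read from those counts. In injured AMD3100 the library with the highest level depended on the gene. It was replicate 1, the library that stood apart, for tlr5b and tlr5a, and replicate 2 for pglyrp5. Within injured DMSO all 3 genes were highest in replicate 2, at 163 CPM for tlr5b, 5.22 CPM for tlr5a and 68.4 CPM for pglyrp5.

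**Figure D2:**
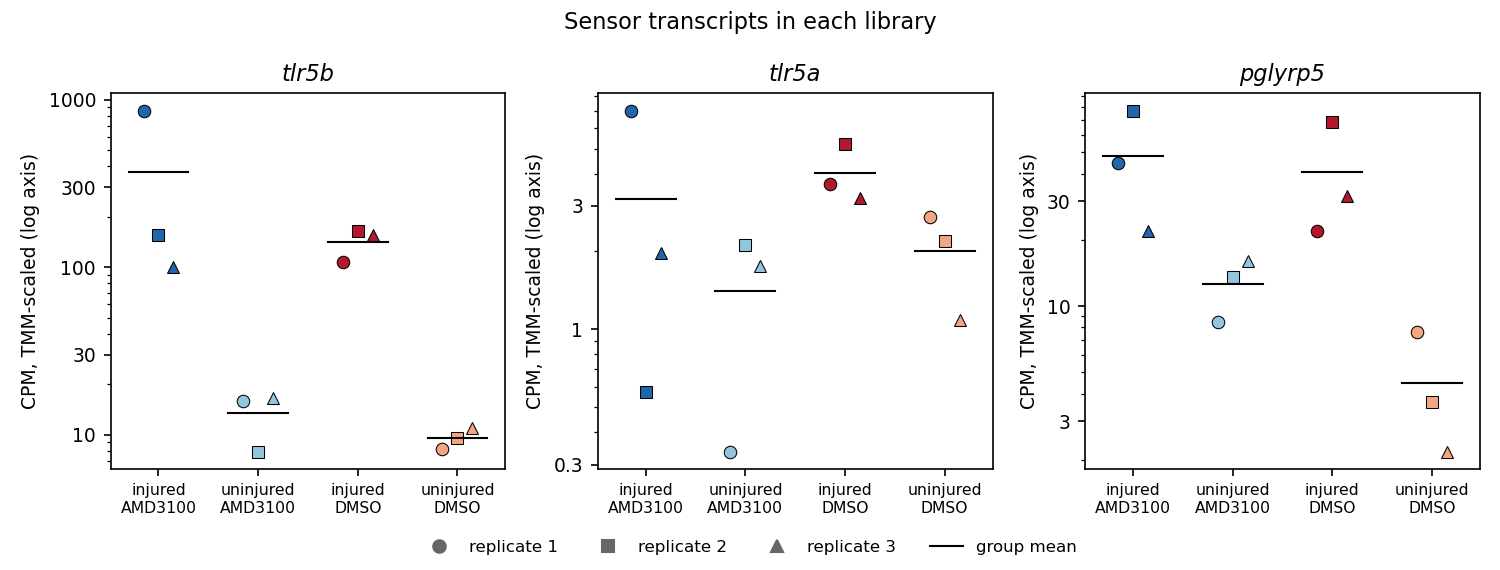
CPM of tlr5b, tlr5a and pglyrp5 in each of the 12 libraries, scaled by TMM factors and drawn on log axes, by group. Points are libraries, shapes are replicate numbers and lines are group means. The libraries of tlr5b fall into a high injured range of 99.6 to 862 CPM and a low uninjured range of 7.93 to 16.5 CPM.

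Counts of each gene were also set against those of EGFP, the transcript of the sorted marker, a scale chosen after the data were seen. The receptor gene tlr5b had 2365, 123 and 75.4 counts per 1000 EGFP counts in injured AMD3100, against 10.2, 4.31 and 7.77 in uninjured AMD3100 libraries. It had 82.3, 116 and 121 in injured DMSO, against 4.61, 4.48 and 5.09 in uninjured DMSO libraries. On this scale the uninjured DMSO libraries lay close together, and injured AMD3100 replicate 1, with its low EGFP level, lay further from the others than in CPM. The amidase gene pglyrp5 had 123, 61.5 and 16.5 in injured AMD3100, against 5.40, 7.36 and 7.54 in uninjured AMD3100 libraries. It had 16.8, 48.5 and 24.5 in injured DMSO, against 4.31, 1.72 and 1.02 in uninjured DMSO libraries. Injured libraries lay above uninjured ones of their treatment on this scale too for both genes, but this restates the contrast they were picked from and is no check. The scale itself differed with injury. Without TMM scaling, EGFP was at 1393 to 1511 CPM in injured DMSO and 1674 to 1827 CPM in uninjured DMSO libraries. With AMD3100 it was at 397 to 1529 CPM in injured and 1576 to 1935 CPM in uninjured libraries. A lower EGFP count makes these ratios larger in injured libraries.

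The next comparison asked whether blocking Cxcr4 changed these genes in injured larvae. None of the 3 passed an adjusted p of 0.05 in edgeR's quasi-likelihood test, and neither did any other gene (0% of 8453 called). There were 466 genes with an unadjusted p under 0.05, DESeq2 called 1 gene and limma-voom 0. For tlr5b the log2 fold change of injured AMD3100 over injured DMSO was 1.36 (SE 0.588, 95% interval 0.11 to 2.62, edgeR adjusted p = 0.901). The groups of all 3 genes overlapped, where 4.66% of all tested genes were higher and 5.67% lower in injured AMD3100 without overlap. The difference of tlr5b came with 1 of 3 AMD3100 libraries above all injured DMSO ones, and it was -0.16 (adjusted p = 0.99996) without injured AMD3100 replicate 1 and 0.57 with limma-voom. Without a filter on low counts it passed (1.26, adjusted p = 0.0385), and its adjusted p ranged from 0.0385 to 1 over all alternatives. For pglyrp5 it was 0.23 (SE 0.502, 95% interval -0.84 to 1.302, edgeR adjusted p = 0.993), so between 0.559-fold and 2.47-fold. It was 0.28 without injured AMD3100 replicate 1, -0.38 without injured AMD3100 replicate 2 and 0.89 without injured DMSO replicate 2. For tlr5a the log2 fold change was -0.86 (SE 0.821, 95% interval -2.61 to 0.89, edgeR adjusted p = 0.971). It was -1.61 without injured AMD3100 replicate 1, -0.17 without injured AMD3100 replicate 2 and -1.57 with limma-voom, and its adjusted p ranged from 0.788 to 1 over all alternatives. The intervals of tlr5a and pglyrp5 include no difference as well as differences above 2-fold.

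Among the 3 genes, the fold of uninjured AMD3100 over uninjured DMSO libraries was largest for pglyrp5. All 3 uninjured AMD3100 libraries, at 8.43 to 16.01 CPM, lay above the uninjured DMSO libraries, at 2.18 to 7.62 CPM, as was so for 6.91% of all tested genes, while 6.02% were lower without overlap. The log2 fold change was 1.62, or 3.08-fold (SE 0.612, 95% interval of the fold 1.25 to 7.60), but the edgeR adjusted p was 0.959. It passed without a filter on low counts (1.63, adjusted p = 0.0338), and its adjusted p lay between 0.0338 and 1 over all alternatives, while the log2 fold change was positive in every one of them (1.12 to 2.23). The uninjured DMSO values rest on 5 to 14 counts per library, and they also entered the injury contrast for which pglyrp5 was picked. The part of the skeletal muscle markers, whose ranges are given above, in this difference was not tested. For tlr5b the log2 fold change was 0.45 (SE 0.658, 95% interval -0.96 to 1.85, edgeR adjusted p = 0.996) and for tlr5a it was -0.31 (SE 0.863, 95% interval -2.15 to 1.53, edgeR adjusted p = 0.999). Of all 8453 genes, 1 (0.0118%) was called here by edgeR, 433 had an unadjusted p under 0.05 DESeq2 called 19 and limma-voom 0. The called gene, named after its value was seen, was the cartilage collagen gene col9a1b, at 20.43 CPM in uninjured AMD3100 and 0.787 CPM in uninjured DMSO libraries on average (log2 fold change 4.36, SE 0.623, adjusted p = 0.0371).

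Whether the injury difference itself depended on AMD3100 was tested as an interaction, the log2 fold change for injury in AMD3100 minus that in DMSO. For pglyrp5 it was -1.39 (SE 0.791, 95% interval -3.08 to 0.30, edgeR adjusted p = 0.99996). It was -1.37 without injured AMD3100 replicate 1, -1.98 without injured AMD3100 replicate 2 and -0.69 without injured DMSO replicate 2. For tlr5b it was 0.92 (SE 0.879, 95% interval -0.95 to 2.79, edgeR adjusted p = 0.99996), and -0.59 (adjusted p = 0.999) without injured AMD3100 replicate 1 and 0.33 with limma-voom. For tlr5a the interaction was -0.56 (SE 1.18, 95% interval -3.08 to 1.96, edgeR adjusted p = 0.99996), and it was -1.305 without injured AMD3100 replicate 1, 0.16 without injured AMD3100 replicate 2 and -1.51 with limma-voom. No gene of the 8453 was called by edgeR (0%), where 265 had an unadjusted p under 0.05, and DESeq2 and limma-voom called 0. A different injury response under AMD3100 was therefore not detectable for these genes with 3 libraries a group, and the intervals of pglyrp5 and tlr5b allow differences of several-fold.

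**Figure D3:**
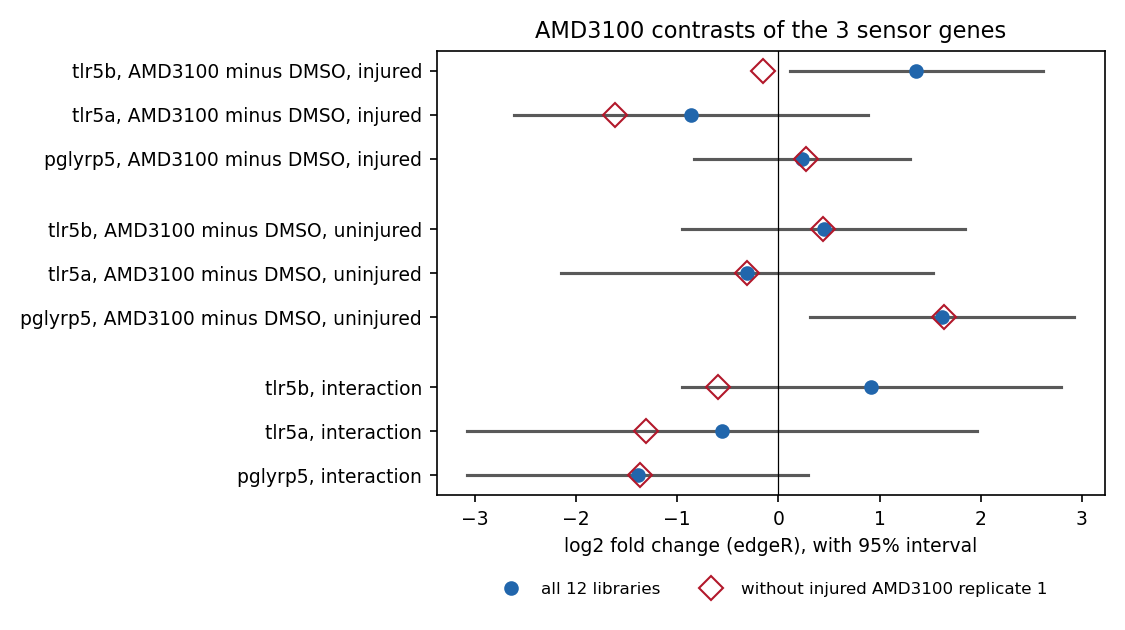
Log2 fold changes of tlr5b, tlr5a and pglyrp5 for AMD3100 minus DMSO in injured and in uninjured larvae and for the interaction. Filled points are fits to all 12 libraries with their 95% intervals, and open diamonds are fits without injured AMD3100 replicate 1. The value of tlr5b in injured larvae is 1.36 with that library and -0.16 without it.

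In entries of their own, other receptors of both families were barely read. Of 15 further Toll-like receptor symbols found in the table, 14 did not pass the filter on low counts, and 4 of these, tlr2, tlr4al, tlr4bb and tlr19, had 0 counts in all libraries. With 66507094 counts in all, 0 counts in an entry allow up to 0.0451 CPM there, without TMM scaling and taking 3 counts as the limit. This is no limit on the gene, since 5877 of the 31263 entries name more than 1 gene. Whether reads of these receptors were counted in such joint entries was not examined. Of the rest of the 14, none had more than 52 counts over the 12 libraries, the total of tlr3, a receptor for double-stranded RNA. The fish receptor tlr18 was the only other one tested, and its direction was opposite to that of tlr5b. It had 0, 0.144 and 1.31 CPM in injured AMD3100 libraries, against 3.71, 9.59 and 4.25 CPM in uninjured AMD3100 libraries, and fell (log2 fold change -3.04, SE 0.814, edgeR adjusted p = 0.0425). That call was lost with the replicate number as a block (adjusted p = 0.0951) and when any library but injured AMD3100 replicate 3 was left out (adjusted p = 0.0522 to 0.247). In DMSO tlr18 had 0.332, 0.531 and 0.160 CPM in injured libraries, against 2.72, 2.20 and 1.27 CPM in uninjured libraries, and did not pass (log2 fold change -2.35, SE 0.905, edgeR adjusted p = 0.155).

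Of the peptidoglycan recognition proteins, pglyrp2 and pglyrp6 did not pass the filter. The secreted amidase gene pglyrp2 had 1, 31 and 17 counts in injured AMD3100 libraries, against 1, 3 and 0 in uninjured AMD3100 libraries. It had 1, 18 and 10 counts in injured DMSO libraries, against 3, 0 and 0 in uninjured DMSO libraries. On the CPM scale the groups of pglyrp2 overlapped in DMSO and not in AMD3100. The gene pglyrp6 had 2 counts in all, both in injured AMD3100 replicate 3.

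The adaptors and kinases that carry the signal of Toll-like receptors showed no call in either injury contrast. Of 16 tested genes of that list, 0 passed in AMD3100, where edgeR called 5.42% of all tested genes (3% higher and 2.41% lower), and 0 passed in DMSO, where it called 5.19% (2.86% higher and 2.33% lower). At an unadjusted p under 0.05 edgeR gave 2 of the 16 in AMD3100 and 2 in DMSO. Over all 8453 tested genes it gave 1670 and 1686. DESeq2 called 1 of the 16 in AMD3100 and 0 in DMSO, and limma-voom called 0 in both. Over all genes DESeq2 called 396 higher and 335 lower in AMD3100, and 328 higher and 395 lower in DMSO. With limma-voom 314 were higher and 393 lower in AMD3100, and 270 higher and 266 lower in DMSO. These totals are the background for the lists below too. The median log2 fold change of the 16 genes was 0.12 for injury in AMD3100 and 0.22 in DMSO, against -0.07 and -0.02 over all tested genes. The adaptor gene myd88 averaged 11.01 ± 2.32 CPM in injured AMD3100 and 8.40 ± 1.26 CPM in uninjured AMD3100 libraries (SD, n = 3 each; log2 fold change 0.35, edgeR adjusted p = 0.688). In DMSO it averaged 9.91 ± 5.22 CPM in injured and 8.13 ± 1.96 CPM in uninjured libraries (log2 fold change 0.31, edgeR adjusted p = 0.735). The transport protein gene unc93b1, which brings zebrafish Tlr5 to its place of action, did not pass either (log2 fold changes 0.26 in AMD3100 and 0.31 in DMSO, edgeR adjusted p = 0.917 and 0.879).

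Among NF-kB subunits, kinases and inhibitors, edgeR called 1 of 13 tested genes higher in each injury contrast and 0 lower, against 3% of all tested genes called higher in AMD3100 and 2.86% in DMSO. DESeq2 and limma-voom called 2 each in each contrast, and 3 had an unadjusted edgeR p under 0.05 in each. Over all 8453 tested genes, 1670 in AMD3100 and 1686 in DMSO had such a p. The gene called by edgeR was tnip1, which encodes a partner of the NF-kB inhibitor A20. It averaged 120 ± 56.3 CPM in injured AMD3100 and 42.8 ± 4.65 CPM in uninjured AMD3100 (SD, n = 3 each; log2 fold change 1.497, SE 0.335, edgeR adjusted p = 0.0181). In DMSO it averaged 99.2 ± 33.1 CPM in injured and 41.9 ± 2.39 CPM in uninjured libraries (log2 fold change 1.25, SE 0.336, edgeR adjusted p = 0.0440). The call in DMSO was lost when 9 of the 12 libraries were left out in turn, with RLE or upper-quartile factors and with thinned libraries. The call in AMD3100 was lost without injured AMD3100 replicate 2 or uninjured AMD3100 replicates 2 or 3. The inhibitor gene nfkbiab, which lay above the uninjured libraries without overlap in both treatments, missed the threshold (log2 fold changes 0.89 in AMD3100 and 0.84 in DMSO, edgeR adjusted p = 0.0506 and 0.0647). The median of the list was 0.52 for injury in AMD3100 and 0.41 in DMSO.

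Among cytosolic sensors of microbes and their adaptors, 2 of 8 tested genes rose in each injury contrast and 0 fell by edgeR, against 3% of all tested genes called higher in AMD3100 and 2.86% in DMSO. DESeq2 and limma-voom also called 2 in each. One was card9, an adaptor that links C-type lectin receptors to NF-kB. It had 56.1, 36.5 and 29.6 CPM in injured AMD3100, against 15.2, 14.6 and 15.5 CPM in uninjured AMD3100 libraries (log2 fold change 1.39, SE 0.292, edgeR adjusted p = 0.0132). It had 28.5, 41.1 and 34.9 CPM in injured DMSO, against 10.9, 11.7 and 12.2 CPM in uninjured DMSO libraries (log2 fold change 1.59, SE 0.300, edgeR adjusted p = 0.00675). The other was birc2, a ubiquitin ligase that acts in signalling from cytosolic and cytokine receptors. The rise of birc2 was 1.40 on the log2 scale in AMD3100 (SE 0.233, edgeR adjusted p = 0.00352) and 1.54 in DMSO (SE 0.234, edgeR adjusted p = 0.00195), and both calls held when any library was left out. The calls of card9 were lost when libraries were thinned to the shallowest (adjusted p = 0.0572 in AMD3100 and 0.0531 in DMSO), and that in AMD3100 also without uninjured AMD3100 replicates 2 or 3 (adjusted p = 0.0726 for replicate 2 and just above the threshold for replicate 3). The peptidoglycan fragment receptor nod2 did not pass (log2 fold changes -0.31 in AMD3100 and -0.48 in DMSO, edgeR adjusted p = 0.797 and 0.658). The inflammasome genes pycard, caspa and caspb did not pass in either contrast (edgeR adjusted p from 0.608 to 0.923).

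Of 8 tested genes of secreted and antibacterial effectors, the class to which pglyrp5 belongs by function, edgeR called 0 higher in either injury contrast, 3 lower in AMD3100 and 2 lower in DMSO, against 2.41% of all tested genes called lower in AMD3100 and 2.33% in DMSO. DESeq2 called 4 in AMD3100 and 5 in DMSO, limma-voom 3 and 2, and 6 and 7 had an unadjusted edgeR p under 0.05. Over all 8453 tested genes, 1670 in AMD3100 and 1686 in DMSO had such a p. The granule protease gene npsn fell by 1.47 on the log2 scale in AMD3100 (SE 0.340, edgeR adjusted p = 0.0220) and by 1.40 in DMSO (SE 0.340, edgeR adjusted p = 0.0261). The peroxidase gene mpx fell by 1.31 in both (edgeR adjusted p = 0.0260 in AMD3100 and 0.0250 in DMSO). The calls of npsn and mpx were lost when some single libraries were left out. The chemotactic protein gene lect2l fell to 672 ± 229 CPM in injured AMD3100, against 3167 ± 1225 CPM in uninjured AMD3100 libraries (SD, n = 3 each; log2 fold change -2.23, edgeR adjusted p = 0.00335). In DMSO lect2l averaged 1216 ± 215 CPM in injured and 2791 ± 767 CPM in uninjured libraries (log2 fold change -1.20, edgeR adjusted p = 0.0654). The antimicrobial peptide gene hamp, also the hormone of iron control, was higher in injured libraries without overlap in both treatments but did not pass. It averaged 6.19 ± 4.12 CPM in injured AMD3100 and 1.14 ± 1.27 CPM in uninjured AMD3100 (SD, n = 3 each; log2 fold change 2.46, edgeR adjusted p = 0.146), and 5.96 ± 3.87 CPM in injured DMSO and 0.363 ± 0.628 CPM in uninjured DMSO (edgeR adjusted p = 0.0571). The lysozyme gene lygl1 did not pass either (log2 fold changes 1.83 in AMD3100 and 1.87 in DMSO, edgeR adjusted p = 0.0815 and 0.0809), and its groups overlapped in AMD3100 and not in DMSO. The median of the list was -0.88 for injury in AMD3100 and -1.25 in DMSO.

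Of 17 tested inflammatory genes that flagellin or NF-kB is known to induce, 3 rose with injury in AMD3100 and 2 in DMSO, and 0 fell by edgeR, against 3% of all tested genes called higher in AMD3100 and 2.86% in DMSO. DESeq2 called 5 in each, limma-voom 3 in AMD3100 and 2 in DMSO, and 7 in AMD3100 and 9 in DMSO had an unadjusted edgeR p under 0.05. Over all 8453 tested genes, 1670 in AMD3100 and 1686 in DMSO had such a p. The matrix-degrading gelatinase gene mmp9 was called in both (log2 fold change 1.60 in AMD3100 and 1.61 in DMSO, edgeR adjusted p = 0.0152 and 0.0143). The call of mmp9 in DMSO was lost without injured DMSO replicates 1 or 3 or uninjured DMSO replicates 2 or 3 (adjusted p = 0.0509 to 0.0722), and that in AMD3100 without uninjured AMD3100 replicates 2 or 3. The feedback inhibitor of cytokine signalling socs3a rose in AMD3100 (log2 fold change 1.18, edgeR adjusted p = 0.0489), a call lost when 10 of the 12 libraries were left out in turn. The acute phase gene saa was called in AMD3100 as well (edgeR adjusted p = 0.0402). It had 0, 41 and 23 counts in injured AMD3100 libraries, against 0, 0 and 0 in uninjured AMD3100 libraries, and was lost as a call under the replicate block. Of the 12 fits with a library left out, saa was tested in 10 and stayed called in 5. In DMSO the cytokine gene il11b rose (log2 fold change 2.87, SE 0.709, edgeR adjusted p = 0.0290), at 38.3 ± 14.7 CPM in injured and 5.16 ± 1.17 CPM in uninjured libraries. It averaged 6.04 ± 7.23 CPM in injured AMD3100 and 10.3 ± 4.93 CPM in uninjured AMD3100 libraries (log2 fold change -0.57, edgeR adjusted p = 0.690). The call of il11b was lost with limma-voom (adjusted p = 0.0550) and without 5 of the libraries (adjusted p = 0.0750 to 0.101). The interaction gave il11b an edgeR adjusted p of 0.99996. None of the tested genes of these lists was called by edgeR, DESeq2 or limma-voom in either AMD3100 contrast or in the interaction. At an unadjusted p under 0.05 edgeR gave 2 effector genes and 1 inflammatory gene for AMD3100 in injured larvae, 2 adaptor genes for AMD3100 in uninjured larvae and 1 inflammatory gene for the interaction. Over all 8453 tested genes these contrasts gave 466, 433 and 265 in turn.

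**Figure D4:**
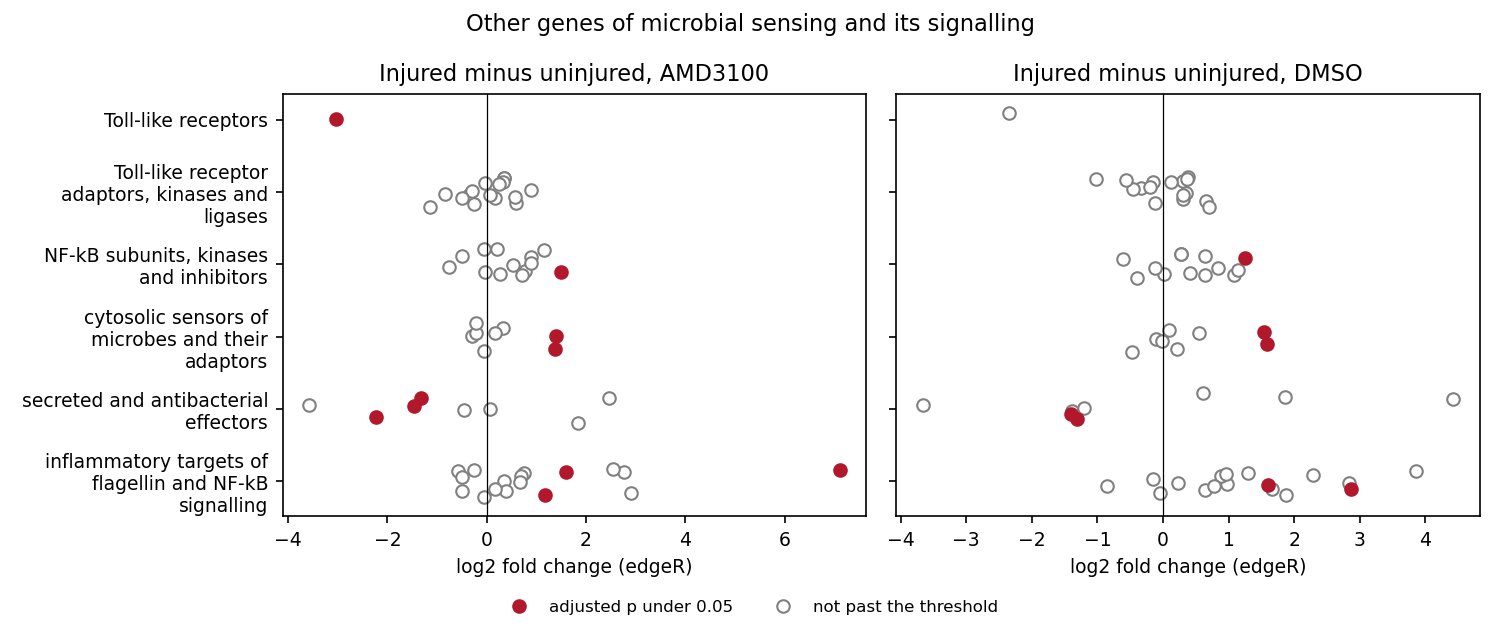
Log2 fold changes of injured minus uninjured libraries for the other tested genes of 6 lists of microbial sensing, its signalling and its targets, with AMD3100 on the left and DMSO on the right. Each point is a gene, and filled points passed an edgeR adjusted p of 0.05. The point above 7 in AMD3100 is saa, whose uninjured AMD3100 libraries were all at 0 counts, so that its fitted value is no measure of size.

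The genes with the pattern most like that of tlr5b over the 12 libraries were found by Pearson correlation of log2 CPM, as a description. They were card9 (r = 0.984), the redox protein gene txn (r = 0.984), the glycolytic aldolase gene aldocb (r = 0.982), the endosomal protein gene plekhf1 (r = 0.981) and the vitamin B12-binding protein gene tcnbb (r = 0.980). Over the 6 injured libraries alone their r was 0.919 to 0.970, and over the 6 uninjured ones it was 0.482 to 0.818. Over the 5 injured libraries without AMD3100 replicate 1, a value added after the data were seen, it was 0.418 (tcnbb) to 0.930 (card9). For pglyrp5 the nearest were chchd4a, a mitochondrial import gene (r = 0.958), clcn7, a lysosomal chloride transporter gene (r = 0.955), sdcbp2, which encodes a syntenin (r = 0.942), the proteasome activator gene psme2 (r = 0.922) and the peroxiredoxin gene prdx1 (r = 0.921). Their r within the 6 injured libraries was 0.704 to 0.910 and within the 6 uninjured ones 0.794 to 0.968. For tlr5a, whose counts were 1 to 59 per library, mcts1 (r = 0.877), the chemokine gene cxcl19 (r = 0.874), fxr2, rnf146 and dpf2 came first. The genes tlr5b and pglyrp5 themselves had an r of 0.817 over 12 libraries, but 0.336 within the injured and 0.222 within the uninjured ones. Without injured AMD3100 replicate 1 their r was 0.839 over the other 11 libraries and 0.834 over the 5 injured ones. The points of each correlation share their libraries and depth, and injured and uninjured libraries form separate clusters for tlr5b and for pglyrp5 within each treatment.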

How the data were processed

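The table deposited by the authors holds raw read counts per gene with no normalization, as its whole numbers show. Per the submitters' processing notes, BWA, genome build GRCz11 and DESeq2 1.38 were used. No source used here states their roles, strand use or handling of molecular identifiers. The 88 spike-in entries were left out. Of the 31263 entries analysed, 5877 name more than 1 gene, and symbols were matched to single-gene entries only. The 8453 tested entries, called genes throughout, include 77 such joint entries. The model was edgeR 4.0.16 under R 4.3.3: filterByExpr by group (minimum count 10, minimum total 15), TMM factors, and a quasi-likelihood model with 1 coefficient per group over all 12 libraries, Benjamini-Hochberg adjusted over 8453 genes. SE and intervals derive from the F statistic. Alternatives used DESeq2 1.42.0 and limma 3.58.1. Correlations used log2 CPM with a prior count of 2, and the 5 highest single-gene entries with a symbol that is not clone-based were named.

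The genes, the 7 lists (151 symbols, 129 found) and the tests were chosen with earlier results of these data known. Named were all tested Toll-like and peptidoglycan receptors, up to 5 called genes per list and injury contrast, cell type markers, and others said to be outside that rule or given as values that did not pass. Totals of 655451 to 12173133 counts limit the precision, and replicate spread is that between libraries labelled as biological replicates. Replicate pairs differed by more than counting noise (chi-square per degree of freedom at least 15.9).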

Additional observations from a re-analysis of the deposited data

How the results depend on the processing

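Leaving out each library in turn, the AMD3100 effect in injured larvae ranged from -0.16 (without injured AMD3100 replicate 1) to 1.83 (log2 fold change) for tlr5b. For pglyrp5 it ranged from -0.38 (without injured AMD3100 replicate 2) to 0.89, and was -0.03 without injured DMSO replicate 1. In uninjured larvae it ranged from -0.77 to 0.039 (without uninjured AMD3100 replicate 1) for tlr5a. The interaction ranged from -0.59 (without injured AMD3100 replicate 1) to 1.42 for tlr5b and from -1.305 to 0.16 (without injured AMD3100 replicate 2) for tlr5a. Injury in AMD3100 ranged from -0.17 to 1.26 for tlr5a and from 3.298 to 5.28 for tlr5b. Without a filter on low counts the AMD3100 effects on tlr5b in injured (1.26) and on pglyrp5 in uninjured larvae (1.63) passed, and limma-voom turned injury in AMD3100 for tlr5a to -0.17; the cause was not tested. Per 1000 EGFP counts, injury in AMD3100 was 2.00 for tlr5a and 2.90 for pglyrp5, and injury in DMSO 1.67 for tlr5a and 4.47 for tlr5b. All other values of the 3 genes kept their direction and side of the threshold. With a minimum of 10 CPM in 3 libraries, or after thinning, tlr5a was not tested.

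Called genes for injury in AMD3100 numbered 458, but 731 with DESeq2, 707 with limma-voom, 714 with no filter and 119 to 574 with a library left out. For injury in DMSO they numbered 439, but 723 with DESeq2, 701 with no filter, 235 with thinned libraries and 163 to 659 with a library left out. For AMD3100 in injured larvae they numbered 0, but 1 with DESeq2, 105 with no filter and 0 to 72 with a library left out. For AMD3100 in uninjured larvae they numbered 1, but 19 with DESeq2, 0 with limma-voom or thinning, 145 with no filter and 0 to 2 with a library left out. For the interaction they numbered 0, but 68 with no filter and 0 to 2 with a library left out.

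With the replicate number as a block, 325 genes were called for injury in AMD3100 and 353 for injury in DMSO, and no call of the 3 genes changed. Whether the numbers pair the libraries is not stated. Deviations of same-numbered libraries had a median correlation of 0.012, and 1 of 18 pairs was over 0.1. With 3 libraries a group these values cannot settle it.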
